A study of Homo sapiens with 6 samples.

Results

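The proteasome genes were followed in the human colorectal carcinoma line HCT116 by RNA sequencing after treatment with CPT-11. CPT-11 is irinotecan, a camptothecin prodrug whose active metabolite traps topoisomerase I on DNA. The CPT-11 group held 3 samples exposed to 10 µM for 48 h, and the control group held 3 samples given DMSO. All 6 samples carried the wild-type genotype and came from the same line, so a single tumour genotype was measured. The series text mentions duplicates, whereas the labels give 3 samples per group, and no label says whether the cultures were separate; the p-values then rest on a spread that may be technical. The genes taken were all protein-coding rows whose symbol starts with PSMA, PSMB, PSMC, PSMD, PSME, PSMF or PSMG. This rule gave 47 genes of the 30560 in the table, of which 16665 were protein-coding. PSMA8 and PSMB11 are not analysed here.

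The proteasome is the main protease of the cytosol and nucleus, and it degrades proteins that carry ubiquitin chains. Its barrel, the 20S core, is built of alpha rings, which gate the entrance, and beta rings, which hold the catalytic sites. The 19S cap binds and unfolds ubiquitinated substrates with a ring of ATPases and a set of non-ATPase subunits. Interferon gamma induces 3 further catalytic subunits, PSMB8, PSMB9 and PSMB10, which take the places of PSMB5, PSMB6 and PSMB7 in newly assembled cores. The resulting immunoproteasome produces peptides suited to presentation on class I molecules, and interferon gamma also induces PSME1 and PSME2, which form the PA28 activator ring on the core.

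The stretches upstream of 4 of the 5 inducible genes are shown because these genes are classical interferon targets and in these cells PSME2 rose while PSMB9 fell. Each is the 250 bases before the RefSeq start on GRCh38.p14, read 5′ to 3′ on the gene's strand. They lie at chr6:32853942-32854191 on the plus strand for PSMB9, chr16:67936851-67937100 on the minus strand for PSMB10, chr14:24135944-24136193 on the plus strand for PSME1 and chr14:24146611-24146860 on the minus strand for PSME2. Capitals mark letters that match, on either strand, the core of the interferon response element (a GAAA run, 2 bases of any kind and a second GAAA run) or TGACNNNGC (the core of the antioxidant response element).
PSMB9: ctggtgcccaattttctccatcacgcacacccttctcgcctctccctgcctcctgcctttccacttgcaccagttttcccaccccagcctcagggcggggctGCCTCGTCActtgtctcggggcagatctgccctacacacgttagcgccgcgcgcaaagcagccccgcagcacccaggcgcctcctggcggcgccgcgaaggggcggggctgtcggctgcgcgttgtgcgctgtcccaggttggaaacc
PSMB10: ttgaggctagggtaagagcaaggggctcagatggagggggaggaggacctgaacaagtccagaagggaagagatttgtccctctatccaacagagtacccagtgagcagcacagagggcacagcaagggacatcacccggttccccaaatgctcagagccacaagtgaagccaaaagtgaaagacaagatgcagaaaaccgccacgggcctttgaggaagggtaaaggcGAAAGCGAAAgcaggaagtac
PSME1: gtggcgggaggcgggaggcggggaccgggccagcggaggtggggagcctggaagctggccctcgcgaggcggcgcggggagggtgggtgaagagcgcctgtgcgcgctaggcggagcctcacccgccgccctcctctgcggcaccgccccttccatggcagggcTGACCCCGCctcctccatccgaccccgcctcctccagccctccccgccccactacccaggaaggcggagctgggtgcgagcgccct
PSME2: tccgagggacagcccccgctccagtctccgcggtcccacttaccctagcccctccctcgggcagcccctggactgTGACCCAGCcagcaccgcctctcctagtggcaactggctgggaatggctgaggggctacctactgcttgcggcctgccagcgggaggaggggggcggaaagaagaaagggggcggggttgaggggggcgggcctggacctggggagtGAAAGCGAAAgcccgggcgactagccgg

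The upstream stretches of PSME2 and PSMB10 each held the interferon response core close to the start. Those of PSMB9 and PSME1 held none of it but 1 match to TGACNNNGC, which PSME2 also held. Of the 47 genes, 41 had an entry in the promoter table, with 51 upstream windows. The interferon response core was present in 5 of these windows (9.8%), those of PSMA4, PSMB10, PSMB4, PSME2 and PSMG4, against 3.02% of 34943 windows of all genes. TGACNNNGC was present in 13 member windows (25.5%), against 10.9% of all windows. The CCAAT box was present in 20 member windows (39.2%), against 32% of all windows. TTTGAA, the cell cycle homology region, was present in 6 member windows (11.8%), against 13.4% of all windows. A match describes letters and is no evidence of a bound factor.

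The libraries held 15398464 to 18031195 reads on genes. CDKN1A, the p53 target that encodes the cell cycle inhibitor p21, had 36467, 32253 and 30460 normalized counts in CPT-11 samples, against 4479, 5169 and 4675 in controls; a normalized count is the number of reads divided by a size factor of the library. Epithelial markers were present. By the test described below, 4 of 6 were called higher (66.7%, against 24.3% of all genes tested). Their summed level was 6329 to 7166 CPM (reads scaled to the library total) in CPT-11 samples, against 3323 to 3795 CPM in controls. Of 12 haematopoietic markers 9 had a row, with a summed level of 22.1 to 25.4 CPM in CPT-11 samples and 14.2 to 16.1 CPM in controls. PTPRC averaged 2.23 and 0.962 normalized counts in CPT-11 and control samples, and MS4A1 and CD68 were at 0 in every control. ITGAM and LCP1 were 2 of the 3 haematopoietic markers tested, and both were called higher (66.7%, against 24.3% of all genes). Of 8 fibroblast and endothelial markers 6 had a row, with a summed level of 58.6 to 80.4 CPM in CPT-11 samples and 33.3 to 40.1 CPM in controls, most of it COL1A1, which was called higher. Mitochondrial genes took 9.70%, 10.3% and 10.9% of reads in CPT-11 samples 1, 2 and 3, against 7.42%, 7.45% and 6.84% in controls 1, 2 and 3. The libraries numbered 1 stood apart from the others of their group. The chi-square per degree of freedom between read counts was 8.92 and 12.1 for CPT-11 sample 1 against CPT-11 samples 2 and 3, which differed from each other by 3.33. It was 12.6 and 12.2 for control 1 against controls 2 and 3, which differed by 4.10, while pairs across the groups lay between 70.4 and 106. The part of these shifts in the results was not tested.

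The genes taken by the rule changed little, and as many were called higher as lower. A gene was tested if it averaged at least 10 normalized counts, and it was called changed at an adjusted p below 0.05. Of the 46 genes tested 14 were called (30.4%), against 49.4% of all 16239 genes tested. Of these, 7 were higher (15.2%; 24.3% of all genes) and 7 were lower (15.2%; 25.1% of all genes) in CPT-11 samples. The genes that rose were PSMC4, PSME2, PSMD9, PSMB5, PSME3, PSMD5 and PSMB4, and those that fell were PSMC3IP, PSMB9, PSMD1, PSMD14, PSMB2, PSMD11 and PSMA3. Among them PSMC3IP does not encode a proteasome subunit. A difference of at least 1.5-fold was reached by 4 of the 46 (8.70%), against 33.8% of all genes. The CPT-11 and control samples did not overlap for 21 of the 46 (45.7%), against 56.6% of all genes. The median log2 fold change (CPT-11 over control) was 0.06 over the 46 genes and 0.01 over all genes, and its median size was 0.15 and 0.39. The log2 fold changes ran between -0.76 and 0.63, with 29 above 0 and 17 below. These are bulk samples, in which fewer cells of a type and less RNA per cell cannot be told apart.

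The split between directions depended on scaling and on single libraries. With libraries scaled by their totals without mitochondrial genes, 12 of the 46 were called higher and 4 lower. Of all 16239 genes tested, 8265 were called with this scaling, against 8022 in the main test. This scaling also moved the median log2 fold change of all genes, from 0.01 to 0.09. Without CPT-11 sample 2, without CPT-11 sample 3 or without control 3, 4 were called higher, and the number lower was 5, 7 and 7 in that order. Of all genes, 6875, 7239 and 7159 were called in the same order. Without both libraries numbered 1, an alternative chosen after seeing the data, 14 were called higher and 7 lower. Of all genes, 8520 were called in that setting. PSMC2, PSMC6, PSMD12, PSMA4, PSME1, PSME4, PSMD10 and PSMG1 were then called higher and PSMC3 lower, whereas PSMD9 and PSMA3 were no longer called. PSMC4, PSME2, PSMB5, PSMD1, PSMD14, PSMB9 and PSMC3IP were called in the same direction under all 17 alternatives run for single genes, and none of the 14 called genes changed sign.

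**Figure D1:**
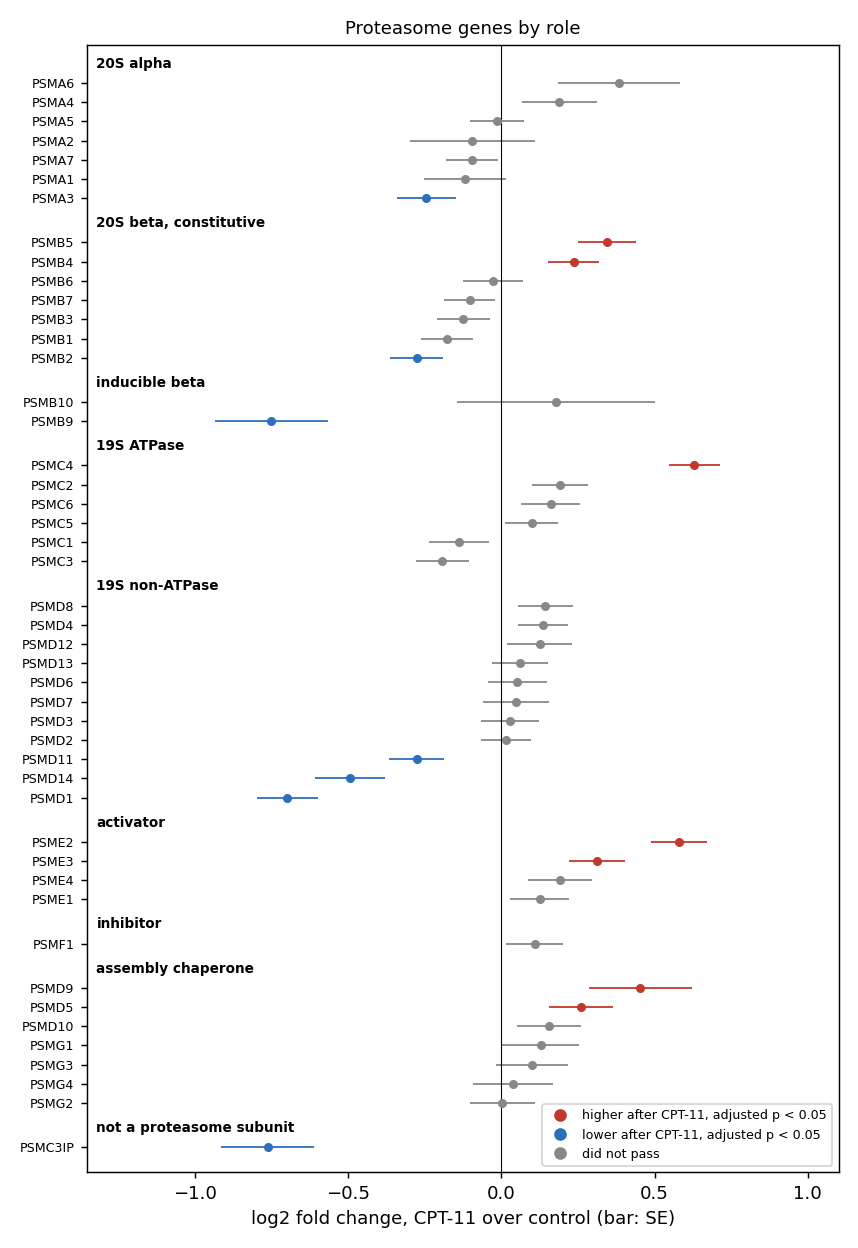
Log2 fold change (CPT-11 over control, with SE, 3 samples per group) of the 46 tested genes, grouped by role. Most values lie close to 0, with PSMC4 at 0.63 and PSME2 at 0.58 at the upper end and PSMC3IP at -0.76, PSMB9 at -0.75 and PSMD1 at -0.70 at the lower end; PSMB8 was not tested.

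The catalytic subunits induced by interferon gamma had low counts, and the best measured of them fell. PSMB9 (chr6:32844136-32859585 on GRCh38, plus strand; also known as LMP2) had 118, 77.0 and 90.4 normalized counts in CPT-11 samples, against 142, 157 and 177 in controls. All CPT-11 samples lay below all controls, CPT-11 sample 1 nearest to them. The log2 fold change was -0.75 (SE 0.18; adjusted p = 0.0025), a 1.68-fold lower level in CPT-11 samples. PSMB10 (chr16:67934502-67937087, minus strand; MECL-1) had 35.3, 26.3 and 25.2 normalized counts in CPT-11 samples, against 18.0, 24.6 and 35.8 in controls. These ranges overlapped widely (log2 fold change 0.18, SE 0.32; adjusted p = 0.67), and without control 1 the value was -0.05. AC040162.1, annotated on the same strand, shares 58.3% of the coding sequence of PSMB10. The low level of PSMB10 and its lack of a call are therefore uncertain. PSMB8 (chr6:32840717-32844703, minus strand; LMP7) averaged 9.87 normalized counts over the 6 samples and so stayed below the filter. It had 10.6, 9.12 and 7.36 normalized counts in CPT-11 samples, against 8.0, 12.8 and 11.3 in controls. Its 28 reads in CPT-11 samples and 32 in controls gave a ratio per library total of 0.874 (exact 95% interval 0.507 to 1.498, counting error only). That interval holds both a fall and a rise, so the direction was not resolved at this depth.

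Their constitutive counterparts were abundant, and the subunit with chymotrypsin-like activity rose. PSMB5 (chr14:23016543-23035230, minus strand) had 2695, 2428 and 2156 normalized counts in CPT-11 samples, against 1854, 1886 and 1973 in controls. The groups did not overlap, and the log2 fold change was 0.34 (SE 0.09; adjusted p = 0.0058). PSMB6 (chr17:4796144-4798503, plus strand), which holds the caspase-like site, had 1330, 1186 and 1151 normalized counts in CPT-11 samples, against 1154, 1276 and 1303 in controls (log2 fold change -0.03, SE 0.10; adjusted p = 0.84). PSMB7 (chr9:124353466-124415444, minus strand), which holds the trypsin-like site, had 2311, 2348 and 2318 normalized counts in CPT-11 samples, against 2547, 2526 and 2422 in controls. The groups of PSMB7 did not overlap, yet the difference did not pass the test (log2 fold change -0.10, SE 0.08; adjusted p = 0.32).

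Per kilobase of exon, the inducible form was a small share of each pair in every sample. Exon length here joins the exons of all annotated transcripts, and the size of a share depends on it. It was 3072 bases for PSMB9 and 1448 for PSMB6, and 2997 for PSMB8 and 1765 for PSMB5. PSMB9 made up 3.52% ± 0.53 of PSMB9 plus PSMB6 in CPT-11 samples and 5.67% ± 0.31 in controls (SD, n = 3 each). PSMB8 made up 0.217% ± 0.015 of PSMB8 plus PSMB5 in CPT-11 samples and 0.330% ± 0.073 in controls. PSMB10 made up 1.19% ± 0.23 of PSMB10 plus PSMB7 in CPT-11 samples and 1.005% ± 0.37 in controls. The first 2 shares were lower in every CPT-11 sample than in every control, and the third overlapped between the groups. PSMB8 itself overlapped between the groups, at 7 to 12 reads per library, while PSMB5 rose. The share of PSMB8 is therefore less certain than that of PSMB9, and its lower value does not show a fall of PSMB8. On the log2 scale the ratio of PSMB9 to PSMB6 differed by -0.72 between CPT-11 and control samples, that of PSMB8 to PSMB5 by -0.56 and that of PSMB10 to PSMB7 by 0.28. Two-sided exact permutation tests gave p = 0.1, 0.1 and 0.4 for these 3 ratios, or 0.15, 0.15 and 0.4 after Benjamini-Hochberg adjustment over the 3 pairs, and 0.1 is the smallest p that 3 against 3 samples allow.

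The subunits of the interferon-inducible activator were expressed far above the inducible catalytic subunits, and PSME2 rose. PSME2 (chr14:24143362-24147570, minus strand), the beta chain of PA28, had 1905, 1946 and 1846 normalized counts in CPT-11 samples, against 1377, 1265 and 1177 in controls. No sample of either group came near the other, and the log2 fold change was 0.58 (SE 0.09; adjusted p = 4.7e-05), a 1.49-fold higher level. PSME1 (chr14:24136158-24138967, plus strand), the alpha chain that assembles with it, had 2156, 2210 and 2173 normalized counts in CPT-11 samples, against 2179, 2108 and 1737 in controls. The PSME1 groups overlapped, since control 1 lay within the CPT-11 range (log2 fold change 0.13, SE 0.10; adjusted p = 0.30); without both libraries numbered 1 it was 0.20 (adjusted p = 0.044). The genes of the 2 chains lie 4.395 kb apart on chromosome 14. Taken as 1 value per sample, the mean log2 level of the 5 inducible genes minus that of the 31 constitutive 20S and 19S subunits was -3.40 ± 0.18 in CPT-11 samples and -3.39 ± 0.20 in controls (SD, n = 3 each). This difference of -0.009 joined a gene that fell and a gene that rose, and was not tested.

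**Figure D2:**
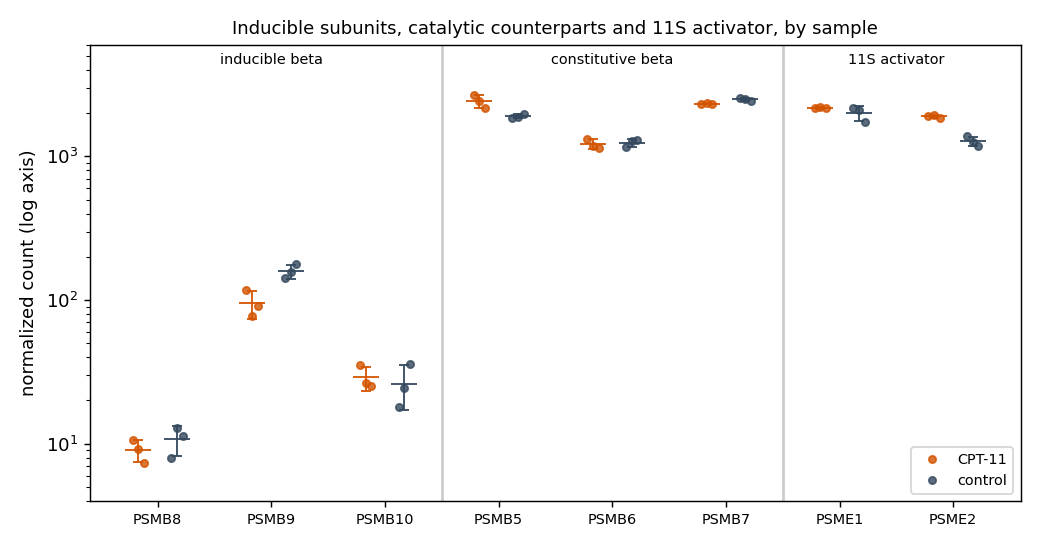
Normalized count (log axis) of PSMB8, PSMB9, PSMB10, PSME1 and PSME2 and of PSMB5, PSMB6 and PSMB7 in each sample, CPT-11 left of control; horizontal marks are group means and bars are SD (n = 3). PSMB9 is lower and PSME2 and PSMB5 are higher in every CPT-11 sample than in every control, and PSMB8 and PSMB10 lie far below the constitutive subunits.

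PSMB9 fell while TAP1, which lies beside it, rose. TAP1 encodes a chain of the transporter that carries proteasome-made peptides into the endoplasmic reticulum. It lies within the annotated span of PSMB9 on the other strand, and the RefSeq starts of the pair are 488 bases apart. TAP1 had 2228, 1977 and 1727 normalized counts in CPT-11 samples, against 734, 822 and 802 in controls. Its log2 fold change was 1.32 (SE 0.10; adjusted p = 1.4e-08), the highest of the 15 peptide-loading genes, whereas that of PSMB9 was -0.75. The 250 bases upstream of this TAP1 start held a pair of overlapping matches to the interferon response core, which lie between the starts of the pair but beyond the 250 bases searched upstream of PSMB9. No source used here states the strandedness, and reads on exons that PSMB9 shares with other genes (5.66% of its exon length) cannot be assigned with certainty.

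Among the 7 constitutive beta subunits, PSMB5 and PSMB4 rose and PSMB2 fell (42.9% called, against 49.4% of all genes). PSMB4, a non-catalytic subunit, had 4200, 4509 and 4230 normalized counts in CPT-11 samples, against 3540, 3874 and 3568 in controls (log2 fold change 0.24, SE 0.08; adjusted p = 0.025). PSMB2, also non-catalytic, had 2558, 2686 and 2634 in CPT-11 samples, against 3312, 3331 and 2908 in controls (log2 fold change -0.28, SE 0.09; adjusted p = 0.014). Neither pair of groups overlapped. PSMB1 and PSMB3, structural subunits of the same ring, had log2 fold changes of -0.18 (adjusted p = 0.095) and -0.12 (adjusted p = 0.25), also without overlap between groups. PSMB4 lost its call without CPT-11 sample 2 or 3 or control 3 (adjusted p at most 0.13 over the alternatives), and PSMB2 without control 2 (at most 0.071).

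Of the 7 alpha subunits 1 was called (14.3%, against 49.4% of all genes). PSMA3 had 1573, 1828 and 1919 normalized counts in CPT-11 samples, against 2243, 2079 and 1966 in controls. CPT-11 sample 3 and control 3 lay close to each other, and the log2 fold change of -0.24 (SE 0.10; adjusted p = 0.045) kept its call under 6 of 17 alternatives, with an adjusted p of at most 0.18. The call was lost without CPT-11 sample 1 or 2 and without control 1 or 2. PSMA6 had the highest value of the ring, with 75.8, 77.0 and 88.3 normalized counts in CPT-11 samples, against 68.0, 57.8 and 58.5 in controls (log2 fold change 0.38, SE 0.20; adjusted p = 0.12). PSMA4 (0.19), PSMA5 (-0.01), PSMA2 (-0.09), PSMA7 (-0.10) and PSMA1 (-0.12) had overlapping groups and were not called. In PSMA4 the libraries numbered 1 crossed the groups, at 3156 normalized counts in CPT-11 sample 1 and 4013 in control 1, while CPT-11 samples 2 and 3 had 4097 and 3960 and controls 2 and 3 had 2906 and 2957. Without both libraries numbered 1 its log2 fold change was 0.46 (adjusted p = 3.1e-06).

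In the ATPase ring of the 19S cap, 1 of 6 subunits rose (16.7%, against 24.3% of all genes) and none was called lower (25.1% of all genes). PSMC4 (chr19:39971005-39981441, plus strand), which encodes the ATPase Rpt3, had 2624, 2685 and 2547 normalized counts in CPT-11 samples, against 1687, 1711 and 1678 in controls. The groups lay far apart, and the log2 fold change was 0.63 (SE 0.08; adjusted p = 7.1e-06), a 1.55-fold higher level. Its partners in the ring moved less, with log2 fold changes of 0.19 for PSMC2 (adjusted p = 0.094), 0.16 for PSMC6, 0.10 for PSMC5, -0.14 for PSMC1 and -0.19 for PSMC3 (adjusted p = 0.080). PSMC4, PSMC5, PSMC1 and PSMC3 had groups that did not overlap. PSMC1 shares 75.8% of its exon length with NRDE2 on the opposite strand and has 13 annotated pseudogenes, so its value is uncertain.

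Among the 11 non-ATPase subunits of the cap 3 fell (27.3%, against 25.1% of all genes) and none rose (24.3% of all genes). PSMD1 (chr2:231056864-231172827, plus strand), the scaffold subunit Rpn2, had 2021, 2346 and 2256 normalized counts in CPT-11 samples, against 4113, 3445 and 3221 in controls. Its highest CPT-11 sample lay well below its lowest control, and the log2 fold change was -0.70 (SE 0.10; adjusted p = 1.7e-05), a 1.62-fold lower level. PSMD2, the scaffold subunit Rpn1, had 7511, 7175 and 6945 normalized counts in CPT-11 samples, against 7347, 7007 and 7040 in controls (log2 fold change 0.02, SE 0.08; adjusted p = 0.89). PSMD14 (chr2:161308038-161411717, plus strand), the deubiquitinase Rpn11 that removes ubiquitin chains from substrates, had 1416, 1671 and 1808 normalized counts in CPT-11 samples, against 2722, 2137 and 2052 in controls. The groups did not overlap (log2 fold change -0.49, SE 0.12; adjusted p = 0.0017), and within each group the library numbered 1 lay farthest out; without both, the value was smaller at -0.27 and still called. PSMD11, the lid subunit Rpn6, had 2194, 2265 and 2447 in CPT-11 samples, against 3028, 2722 and 2613 in controls (log2 fold change -0.27, SE 0.09; adjusted p = 0.017), and it was not called without CPT-11 sample 2 or without control 1 (adjusted p at most 0.081 over the alternatives). PSMD8 had the highest value of the set, at 0.14 (SE 0.09; adjusted p = 0.20). The other 6, PSMD4, PSMD12, PSMD13, PSMD6, PSMD7 and PSMD3, lay between 0.03 and 0.14.

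Of the other activators PSME3 rose, and PSME4 and the inhibitor PSMF1 did not pass the test. PSME3, the gamma form of PA28 found in the nucleus, had 3679, 4059 and 4088 normalized counts in CPT-11 samples, against 3464, 3201 and 2870 in controls. The groups did not overlap, and the log2 fold change was 0.31 (SE 0.09; adjusted p = 0.0085); without control 3 it was 0.24 (adjusted p = 0.064). PSME4, the activator PA200, had 2602, 3094 and 3306 in CPT-11 samples, against 2957, 2449 and 2468 in controls (log2 fold change 0.19, SE 0.10; adjusted p = 0.14). Without both libraries numbered 1, PSME4 was at 0.38 (adjusted p = 4.8e-05), and without either of them it was also called. PSMF1, which encodes the inhibitor PI31, had 1637, 1543 and 1600 in CPT-11 samples, against 1352, 1581 and 1507 in controls (log2 fold change 0.11, SE 0.09; adjusted p = 0.35).

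The 7 assembly chaperones had log2 fold changes between 0.004 and 0.45, and 2 passed the test (28.6%, against 49.4% of all genes). PSMD9, a chaperone of the ATPase ring, had 130.5, 129.7 and 138.8 normalized counts in CPT-11 samples, against 85, 104.9 and 101.8 in controls. The groups did not overlap (log2 fold change 0.45, SE 0.17; adjusted p = 0.032). PSMD5, another chaperone of that ring, had 1412, 1749 and 1697 in CPT-11 samples, against 1493, 1273 and 1281 in controls. Control 1 exceeded CPT-11 sample 1 in PSMD5 (log2 fold change 0.26, SE 0.10; adjusted p = 0.045). PSMD10, the chaperone also called gankyrin, was at 0.16 (adjusted p = 0.22). The chaperones of the alpha ring and the core, PSMG1, PSMG3, PSMG4 and PSMG2, were at 0.13, 0.10, 0.04 and 0.004, and without both libraries numbered 1 PSMG3 was at -0.06. When 1 sample was left out, PSMG2 reached -0.082 and PSMG4 -0.036. PSMD9 kept its call under 10 and PSMD5 under 11 of 17 alternatives, and PSMD5 lost it without CPT-11 sample 2 or 3 or control 2 or 3. PSMD9 lost it without any 1 of the CPT-11 samples and without control 1. The adjusted p over the alternatives was at most 0.12 for PSMD9 and 0.20 for PSMD5. Other annotated genes on the same strand share 58.7% of the coding sequence of PSMD9, so its change is uncertain. WDR66, which shares 4.97% of the exon length of PSMD9 on that strand, was called higher in the main test (log2 fold change 0.90, SE 0.17; adjusted p = 0.00035).

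PSMC3IP meets the naming rule but encodes HOP2, a factor of homologous recombination that works with MND1, and not a proteasome subunit. It had 130.5, 107.4 and 110.4 normalized counts in CPT-11 samples, against 197, 199 and 194 in controls. The groups lay far apart for so low a level, and the log2 fold change of -0.76 (SE 0.15; adjusted p = 0.00044) was the lowest of the 46. MLX, on the opposite strand, covers 29.9% of its exon length, and MLX had 1144, 948 and 1009 normalized counts in CPT-11 samples, against 995, 935 and 940 in controls. Without PSMC3IP, 7 genes were called higher and 6 lower (28.9% called, against 49.4% of all genes).

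Levels per exon length spanned from 3.29 normalized counts per kb for PSMB8 to 1848 for PSMB4, as means over the 6 samples. The constitutive beta subunits had a median of 1248 per kb, the 19S non-ATPase subunits 559, the ATPases 466, the alpha subunits 354 and the chaperones 286. Of the 3 inducible catalytic subunits PSMB9 was at 41.3, PSMB10 at 14.9 and PSMB8 at 3.29 per kb. Although the subunits of a ring are present in equal copies in the complex, PSMA6 was at 10.9 and PSMA2 at 19.6 per kb, against 1723 for PSMA7. For PSMA2, PSMA1, PSMA6, PSMD9 and PSMB10, other annotated genes on the same strand share 97.1%, 88.6%, 70.4%, 58.7% and 58.3% of the coding sequence. These 5 lay between 10.9 and 135 per kb, which are the lowest 3 of the alpha subunits and the lowest of the chaperones. AC040162.1, which shares the coding sequence of PSMB10, had 86.4, 78.0 and 63.1 normalized counts in CPT-11 samples, against 32, 49.2 and 33.9 in controls. By the main test AC040162.1 was called higher (log2 fold change 0.98, SE 0.24; adjusted p = 0.0026). No source used here states how reads on shared exons were assigned, and the level and the change of these genes, and the immunoproteasome share of PSMB10, are uncertain. The cause of the low levels was not tested. Of the 47 genes 24 had some exonic overlap with another gene. Among the 23 with none 4 were called higher and 2 lower (26.1% called, against 49.4% of all genes).

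**Figure D3:**
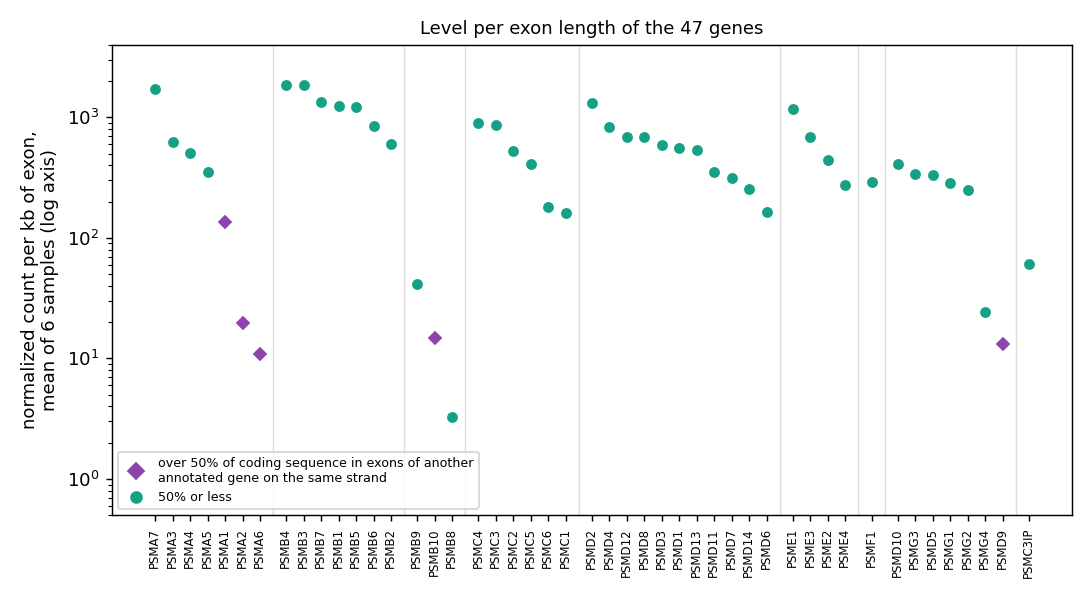
Mean level of the 47 genes over 6 samples in normalized counts per kb of exon (log axis), grouped by role; diamonds mark genes with over 50% of coding sequence in exons of another gene on the same strand. PSMB8 lies lowest at 3.29 and the 5 diamonds lie between 10.9 and 135.

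The 2 subunits of the cap that fell most have long genes. PSMD1 spans 116.0 kb and PSMD14 spans 103.7 kb, whereas the 46 tested genes had a median span of 16.8 kb and all tested protein-coding genes one of 32.8 kb. In the 4 classes of span under 10, 10 to 30, 30 to 100 and at least 100 kb, protein-coding genes had median log2 fold changes of 0.17, 0.15, -0.01 and -0.44. The proteasome genes in these classes numbered 14, 21, 7 and 4, with medians of 0.11, 0.06, 0.004 and -0.31. The other 2 of at least 100 kb did not pass the test, PSME4 at 0.19 with a span of 106.8 kb and PSMA1 at -0.12 with a span of 138.8 kb. Across genes, which are not independent replicates and share the same libraries, Spearman's rho between span and log2 fold change was -0.18 over the 46 genes and -0.32 over 13215 protein-coding genes.

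**Figure D4:**
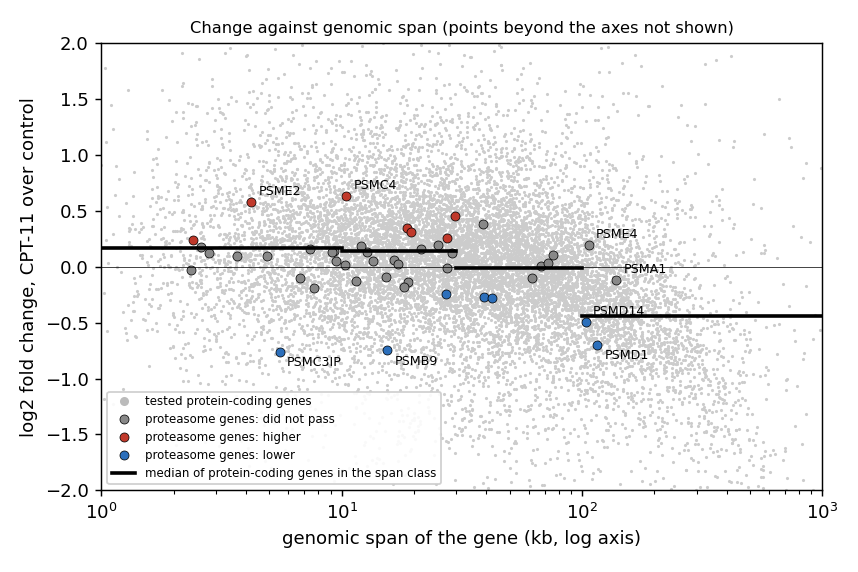
Log2 fold change (CPT-11 over control) against gene span in kb (log axis) for protein-coding genes in grey, with their medians per span class, and for the proteasome genes in colour. In the longest class, whose median is -0.44, PSMD14 lies near it at -0.49, PSMD1 below it at -0.70 and PSME4 above it at 0.19.

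Factors that work with the proteasome changed in both directions. Of 21 listed partners and chaperones 19 had a row and were tested, with 5 higher and 8 lower (68.4%, against 49.4% of all genes) and a median log2 fold change of -0.06. PAAF1, which binds the ATPases of the cap, had 331.5, 380.9 and 289.2 normalized counts in CPT-11 samples, against 145.0, 197.9 and 170.7 in controls (log2 fold change 0.96, SE 0.15; adjusted p = 4.3e-05). UCHL5, a deubiquitinase of the cap, had 643, 872 and 864 in CPT-11 samples, against 1602, 1356 and 1318 in controls (log2 fold change -0.85, SE 0.12; adjusted p = 1.5e-05). POMP, which matures the core and is needed for the immunoproteasome, had 1749, 2084 and 2074 in CPT-11 samples, against 1665, 1596 and 1605 in controls (log2 fold change 0.28, SE 0.09; adjusted p = 0.021). None of these 3 overlapped between groups, but POMP was not called without CPT-11 sample 2 or 3 or control 2 or 3 (adjusted p = 0.12, 0.095, 0.066 and 0.064). The shuttle factors that carry ubiquitinated proteins to the cap were divided, with UBQLN2 at 0.68 and UBQLN4 at 0.58 higher and RAD23B at -0.41 and UBQLN1 at -0.27 lower. IPO9, an importin that brings proteasomes into the nucleus, was lower at -0.53. UBQLN1 was not called without CPT-11 sample 3 or control 1 (adjusted p = 0.054 and 0.057).

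The genes that control proteasome transcription changed in 2 of 12 cases, both upward (16.7%, against 49.4% of all genes), with a median of 0.05. DDI2, the protease that activates the transcription factor NFE2L1, had 1721, 1882 and 1920 normalized counts in CPT-11 samples, against 1386, 1211 and 1246 in controls (log2 fold change 0.52, SE 0.09; adjusted p = 0.00015). NFE2L1, which drives proteasome genes when proteasome capacity is short, had 3645, 3621 and 3277 in CPT-11 samples, against 3167, 3428 and 3193 in controls (log2 fold change 0.11, SE 0.08; adjusted p = 0.32). KEAP1, the adaptor that targets NFE2L2 for degradation, was higher at 0.40 (adjusted p = 0.0026), and MAFG had the lowest value of the list, at -0.16 (adjusted p = 0.15). Of ubiquitin genes and activating enzymes 2 of 6 were called (33.3%, against 49.4% of all genes), both higher, with a median of 0.15 and the lowest value at RPS27A (-0.14; adjusted p = 0.30). Without both libraries numbered 1, KEAP1 was at 0.27 and MAFG was called lower at -0.26.

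Of 14 listed genes of the interferon gamma axis 12 were tested, with 3 higher and 3 lower and a median log2 fold change of 0.11. This share called, 50%, was near the 49.4% of all genes. IRF1, the transcription factor that acts on PSMB9 and TAP1 in the interferon response, had 378, 323 and 363 normalized counts in CPT-11 samples, against 201, 282 and 244 in controls (log2 fold change 0.56, SE 0.14; adjusted p = 0.0032). CIITA, the activator of class II genes, was highest at 0.76 (adjusted p = 0.023), at 41.5 to 59.9 normalized counts in CPT-11 samples and 25.5 to 32.1 in controls. Of the receptor chains and their kinases, IFNGR1 was higher at 0.28, and IFNGR2 at -0.35, JAK2 at -0.42 and JAK1 at -0.43 were lower. NLRC5, the activator of class I genes, was at 0.10 (adjusted p = 0.55). Several of these calls rested on single libraries. CIITA was not called without CPT-11 sample 1 or 3 or control 3 (adjusted p = 0.052, 0.11 and 0.071), and IFNGR2 was not called without CPT-11 sample 3 (0.063). IFNGR1 was not called without CPT-11 sample 2 or 3 or control 2 or 3 (adjusted p = 0.13, 0.13, 0.094 and 0.18), and JAK2 was not called without CPT-11 sample 1 or control 1 (0.080 and 0.088).

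Peptide loading, the step after the immunoproteasome, had 5 of 15 genes higher and 2 lower, with a median log2 fold change of 0.09. This share called, 46.7%, was also near the 49.4% of all genes. TAP1 was joined by ERAP2, the trimming peptidase, at 0.98, by HLA-B at 0.69, by TAP2, the other transporter chain, at 0.62 and by HLA-E at 0.26. TAPBP, which bridges class I molecules to the transporter, had 1430, 1403 and 1237 normalized counts in CPT-11 samples, against 1664, 1978 and 1931 in controls (log2 fold change -0.45, SE 0.10; adjusted p = 0.00094). PDIA3, a disulfide isomerase of the same complex, was lower at -0.37, and at -0.24 without both libraries numbered 1. HLA-E was not called without CPT-11 sample 1 or 2 or control 3 (adjusted p = 0.087, 0.073 and 0.090). The class I genes share sequence with each other, so their values are uncertain.

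**Figure D5:**
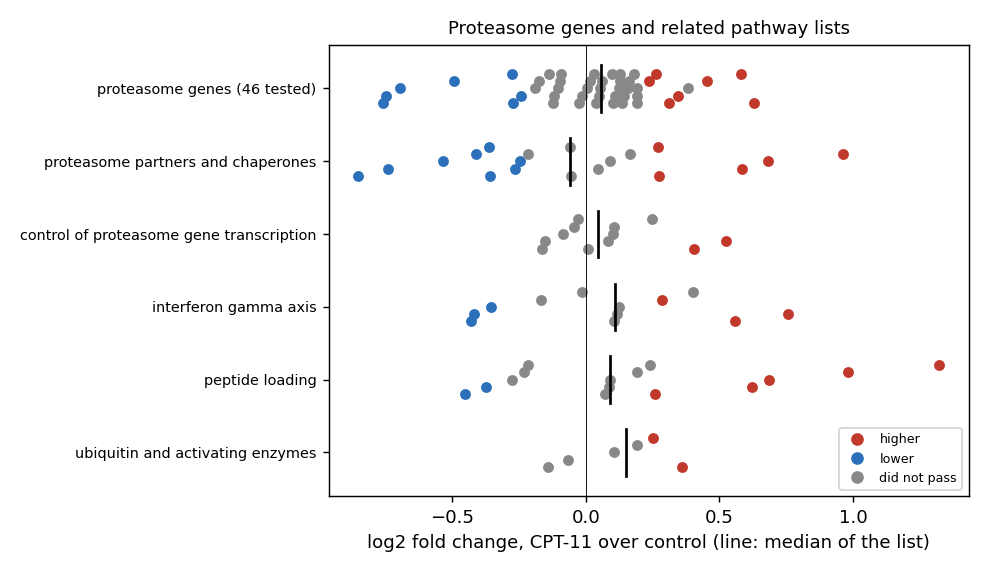
Log2 fold change (CPT-11 over control) of each tested gene of the proteasome set and of the 5 related lists, with the list median as a bar. The proteasome set runs between -0.76 (PSMC3IP, not a proteasome subunit) and 0.63. The partners run between -0.85 and 0.96, and TAP1 at 1.32 is the highest of the peptide-loading genes.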

How the data were processed

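RNA of 6 HCT116 samples was sequenced, 3 with CPT-11 and 3 with DMSO, as the labels give them. The submitters' processing notes list the build GRCh38 and, without roles, edgeR 3.24.3, DESeq2 1.22.1, StringTie 1.3.4d, featureCounts 1.6.2, HISAT2 2.1.0 and fastp 0.19.3. The authors deposited 1 table of 30560 genes whose positions equal GENCODE release 29. Its per-sample values are a normalized signal, which the authors made by dividing reads by 1 size factor per library: 100% of values were whole reads within 0.001 read. The log2 fold change and the p-value columns the authors deposited were not used for any result printed here.

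The main test was limma 3.58.1 (R 4.3.3) with a mean-variance trend on log2(normalized count + 1), for genes with a mean of at least 10, with Benjamini-Hochberg adjustment over all 16239. The pseudocount of 1 makes fold changes of low genes smaller. The design foresaw such normalized values. edgeR 4.0.16 (quasi-likelihood) on the recovered reads called 8079 genes and DESeq2 1.42.0 called 7805, against 8022 by limma. Other alternatives changed the pseudocount, filter, scaling and samples, or added the replicate number as a block. Scripts were tested on simulated data. A value after ± is an SD.

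The members, lists and tests were chosen with earlier results of these data known. Named were the inducible genes and their counterparts, the highest and lowest gene of each role and list, all called members, and NFE2L1, IRF1, NLRC5, TAP1 and POMP; a few items this takes are left out of the text. CDKN1A, MLX, AC040162.1, NRDE2, the other partners, the receptor-side and peptide-loading genes and the uncalled members beyond the rule were named after their values were seen. Upstream stretches came from RefSeq (GRCh38.p14). Intervals cover counting error only.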

Additional observations from a re-analysis of the deposited data

How the results depend on the processing

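Over the settings tried, the 14 called genes kept their direction, and 7 of them kept the call in all 17. The number of proteasome genes called higher, 7 in the main test, was 4 without a filter on low values, 12 with libraries scaled without mitochondrial genes, 4 with the replicate number as a block, 4 after leaving out genes whose exons overlap another gene and 14 without replicate 1 of both groups. The number called lower, also 7, was 4 without mitochondrial genes, 4 with the block and 2 after leaving out genes with exonic overlap. Leaving out 1 sample at a time gave 4 to 10 higher and 5 to 7 lower. The block called 6812 of all 16239 genes, against 8022 without it. Scaling without mitochondrial genes called 8265 of all genes, and leaving out replicate 1 of both groups called 8520. Without the filter 8254 of 30560 genes were called. Leaving out 1 sample at a time called 6875 to 7950 of all genes. Expression gave no sign that the replicate numbers pair the samples: deviations of same-numbered samples from their group means correlated at -0.23, -0.006 and -0.10. With 3 samples per group these values cannot exclude that same-numbered cultures or libraries were handled together. The scaling without mitochondrial genes applies 1 factor per library to every gene, and it moved the median log2 fold change of all genes from 0.01 to 0.09. The cause of the other shifts in these numbers was not tested, except that leaving out genes leaves fewer to call.

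The ratio of PSMB9 to PSMB6 ran between -0.83 and -0.60 and that of PSMB8 to PSMB5 between -0.72 and -0.42 when 1 sample was left out. That of PSMB10 to PSMB7 ran between 0.04, without control 1, and 0.55, without control 3. The mean of the inducible minus that of the constitutive subunits ran between -0.12, without control 1, and 0.07, without control 3. Of the gene-level values 696 kept direction and side of the threshold, 37 lost the call, 23 gained it and 25 changed sign.

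Some values close to 0 changed sign, none of them called in the main test. PSMA5 was at 0.020 with scaling by library total and 0.069 without mitochondrial genes, and PSMB6 at 0.0071 and 0.056. Without replicate 1 of both groups, PSMD3 was at -0.10, PSMA1 at 0.12, PSMA2 at 0.089, PSMA5 at 0.068, PSMG3 at -0.064 and PSMB10 at -0.20. With 1 sample left out, the range was -0.014 to 0.042 for PSMD2, -0.056 to 0.094 for PSMD3, -0.015 to 0.12 for PSMD6, -0.0032 to 0.14 for PSMD7, -0.20 to 0.010 for PSMA1, -0.30 to 0.043 for PSMA2, -0.047 to 0.033 for PSMA5, -0.089 to 0.015 for PSMB6, -0.082 to 0.076 for PSMG2, -0.036 to 0.12 for PSMG4 and -0.052 to 0.43 for PSMB10.

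With 3 samples per group small changes are uncertain, and PSMB8, with 28 and 32 reads, is limited by depth.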
